A study of Mus musculus with 2 samples.

Results

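Mitotic tumour cells were the tumour cells of a mouse tumour pool with the most mRNA of 9 genes of cell division. A barcode counted as a tumour cell when it held at least 500 genes, under 15% mitochondrial unique molecular identifiers (UMIs, each an mRNA molecule captured and counted once), at least 3 UMIs of the keratin genes Krt8 and Krt18 together, and 0 UMIs of the leucocyte gene Ptprc. Of 9747 barcodes, 8784 passed the gene and mitochondrial limits and 5810 were tumour cells. The members were chosen by measured values: tumour cells were ranked by the summed CPM (a gene's UMIs scaled to a total of 1000000 gene UMIs in the cells concerned) of Ube2c, Cenpf, Prc1, Top2a, Cdk1, Ccnb1, Nusap1, Tpx2 and Birc5, and the top 10%, 581 cells, were called mitotic. The other 5229 tumour cells were the comparison.

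The pool held live cells of 3 vehicle and 3 ACSS2i (ACSS2 inhibitor) treated tumour samples of a mouse strain labelled "NGS mouse", with 4000 to 6000 cells taken from each and all of them run on 1 droplet lane with a 3′ expression kit and a feature barcode kit. ACSS2 makes acetyl-CoA from acetate, and the series title places the work in triple negative breast cancer. The series' design text speaks of Bmal1 status, which is not among the labels of the pool. The 6 samples carried antibody tags called U2, U3, U4 and D0, D1, D4. Their assignment to vehicle or inhibitor is not stated in the sources read, so the arms were not compared and each tag stands for a sample of unknown treatment. Dose, duration, tumour line and age of the animals are not stated. With 1 library and unmapped tags there is no replicate of a condition, so no p-value is given. Ranges in parentheses after a CPM, ratio or share are exact 95% intervals that cover counting error alone.

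In mitosis the replicated chromosomes are condensed, attached through kinetochores to a spindle of microtubules, and pulled apart before the cell is cleaved. Cdk1 with its B-type cyclins drives entry, and the anaphase promoting complex, a ubiquitin ligase, ends it by marking cyclin B and securin for destruction. Most of the mRNAs concerned are made from late S phase through G2, under the factors B-Myb and FoxM1 and the MuvB complex, so counts of these mRNAs do not separate a G2 cell from a cell in mitosis. Rapidly dividing tumours such as triple negative breast cancers are known for high levels of them.

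The limit fell inside a continuous upper group of cells rather than in a gap. The lowest member scored 3943 CPM and the highest other cell 3940 CPM. The 10 cells just inside the limit scored 3943 to 3981 CPM and the 10 just outside 3908 to 3940 CPM. Within 10% of the limit lay 81 members above it and 112 other cells below it, and 503 other cells reached at least 50% of the limit. At the low end, 4063 of the other cells (77.7%) scored under 10% of the limit and 1289 (24.7%) held no UMI of the 9 genes. The median score was 5439 CPM in members and 74.4 CPM in the others, and 552 of the 581 members held all 9 mRNAs. The comparison group therefore contained cells with much of the same programme, and its levels of division genes were not those of resting cells.

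**Figure D1:**
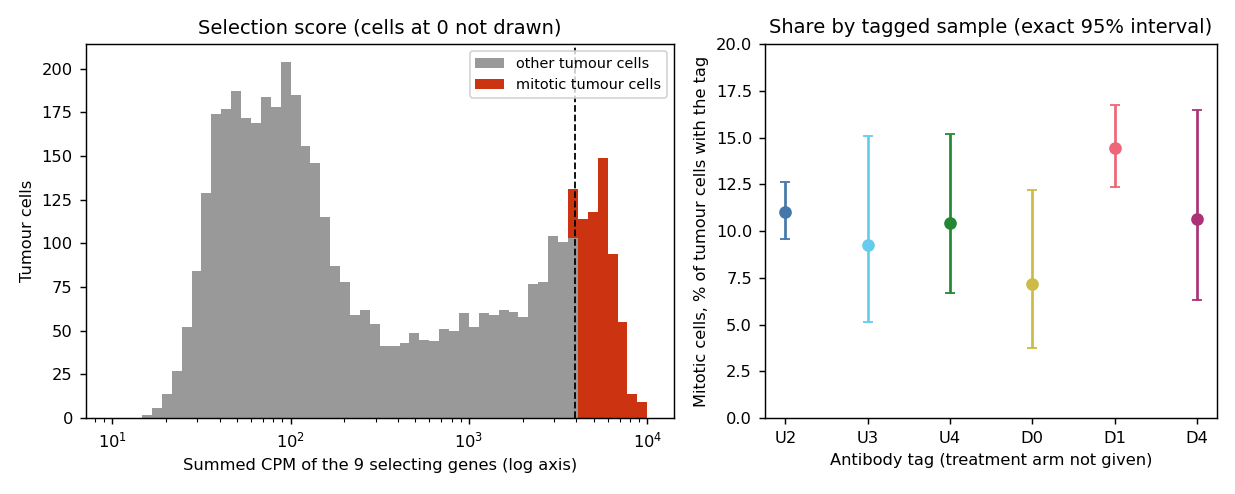
Left, number of tumour cells (y axis) against the summed CPM of the 9 selecting genes (x axis, log scale), grey for other and red for mitotic tumour cells, stacked, with the limit of 3943 CPM dashed and cells at 0 not drawn. Right, percent of each tag's tumour cells that were mitotic, with the exact 95% interval, from 7.19% in D0 to 14.5% in D1. The limit cuts through the upper group of cells, and the intervals of most tags overlap.

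Mitotic cells occurred under every tag. They made up 11.03% of the tumour cells tagged U2 (185 of 1677, interval 9.57 to 12.6%), 9.27% of U3 (14 of 151, 5.16 to 15.1%) and 10.4% of U4 (23 of 221, 6.71 to 15.2%). The share was 7.19% for D0 (12 of 167, 3.77 to 12.2%), 14.5% for D1 (148 of 1024, 12.4 to 16.8%) and 10.6% for D4 (17 of 160, 6.31 to 16.5%). D1 was highest and D0 lowest, and among the 6 tags theirs was the pair of intervals that did not overlap. The intervals of neighbours in the order overlapped, which does not show that their shares were equal. Those of D1 and U2 overlapped from 12.4 to 12.6% alone, and each share lay outside the other's interval. At least 20 mitotic cells were held by 3 tags. Untagged tumour cells were mitotic in 7.44% of cases (138 of 1854, 6.29 to 8.73%).

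Members held more RNA per barcode than the others. Their median was 37221 gene UMIs and 5524 genes, against 24876 UMIs and 4491 genes, a ratio of median UMIs of 1.496. Within the tags this ratio ran from 1.05 in D0, whose 12 members had a median of 24860 UMIs, to 1.67 in U4. After each cell was thinned to 5000 UMIs the medians were 1954 and 1845 genes, with 19 members and 85 others too shallow to enter. Barcodes with more than 1 tag, which are doublets of cells from different samples, were kept and made up 7.57% of members and 9.79% of the others. Median mitochondrial UMIs were 3.499% and 3.77%. CPM and UMIs per cell therefore give different pictures: Actb, a cytoskeletal actin, had 156 UMIs per mitotic cell and 94.5 per other cell, at a CPM ratio of 1.20.

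The label was checked against other markers of division and of tumour cells. Mki67, the proliferation antigen Ki-67, had 333 CPM in members and 45.1 CPM in the others, a ratio of 7.38 (7.14 to 7.64), and was higher in all 6 tags. Krt8 had 921 and 801 CPM and Krt18 256 and 214 CPM, both of which had been used to find tumour cells. Of 17 keratin and epithelial adhesion genes, 6 reached the 5 CPM needed to enter a count, and Vim, a mesenchymal intermediate filament, stood at 7841 and 6808 CPM.

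The 9 selecting genes are given as a description, since they chose the cells. Ube2c, the ubiquitin conjugating enzyme of the anaphase promoting complex, had 1117 CPM in members and 104 CPM in the others. Cenpf, a kinetochore protein, had 816 and 57.5 CPM, and Prc1, which bundles the microtubules of the central spindle, 715 and 67.7 CPM. Top2a, the topoisomerase that untangles sister chromatids, had 854 and 102 CPM. Cdk1, the mitotic kinase, had 591.5 and 85.2 CPM, and Ccnb1, its cyclin B1 partner, 301 and 26.2 CPM. Nusap1 and Tpx2, both spindle assembly proteins, had 259 and 22.2 CPM and 442 and 65.3 CPM. Birc5, the survivin subunit of the chromosomal passenger complex, had 469 and 68.9 CPM.

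Promoters are shown because many of the genes highest in mitotic cells shared short motifs next to their start sites. The element called CHR, which MuvB complexes bind, was searched as TTTGAA and TTCGAA, the CCAAT box as CCAAT, and the E2F site of replication genes as TTTCCCGC and TTTGGCGC, each on both strands, in RefSeq promoters of GRCm38.p6 (300 bases, 250 before to 50 after the start). The 100 bases before the start follow, read on the gene's strand, with every match in capitals and no overlap between matches. Ube2c lies at chr2:164769829-164769928 (plus strand), Cdk1 at chr10:69352913-69353012 (minus), Top2a at chr11:99024190-99024289 (minus) and Ccnb1 at chr13:100786487-100786586 (minus). Birc5, a selecting gene without any match in the window, lies at chr11:117849137-117849236 (plus). Of genes not used to select, Cdc20 lies at chr4:118437344-118437443 (minus) and Gas2l3 at chr10:89443968-89444067 (minus). Mcm6, a replication gene at chr1:128359706-128359805 (minus), is shown for contrast. The windows printed were chosen after the matches and values were seen: of 19 division genes whose windows were read, 5 held CHR letters in these 100 bases, and all 5 are shown.
Ube2c: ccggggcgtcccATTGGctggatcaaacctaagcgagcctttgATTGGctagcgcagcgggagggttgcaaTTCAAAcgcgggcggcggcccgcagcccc
Cdk1: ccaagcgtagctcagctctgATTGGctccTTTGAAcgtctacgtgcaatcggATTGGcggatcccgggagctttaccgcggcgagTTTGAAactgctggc
Top2a: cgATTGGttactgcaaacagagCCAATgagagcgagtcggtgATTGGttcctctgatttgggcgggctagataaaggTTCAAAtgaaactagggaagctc
Ccnb1: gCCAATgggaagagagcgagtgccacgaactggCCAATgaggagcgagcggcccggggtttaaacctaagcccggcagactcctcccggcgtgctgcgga
Birc5: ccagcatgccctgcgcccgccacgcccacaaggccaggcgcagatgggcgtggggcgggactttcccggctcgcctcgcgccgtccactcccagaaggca
Cdc20: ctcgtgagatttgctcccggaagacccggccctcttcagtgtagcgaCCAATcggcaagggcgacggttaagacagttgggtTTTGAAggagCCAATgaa
Gas2l3: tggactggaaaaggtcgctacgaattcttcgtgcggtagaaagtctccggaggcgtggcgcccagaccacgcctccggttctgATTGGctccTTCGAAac
Mcm6: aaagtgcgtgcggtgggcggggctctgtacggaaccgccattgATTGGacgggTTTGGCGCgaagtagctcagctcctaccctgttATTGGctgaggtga

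CHR letters began 29 bases before the start in Ube2c, 15 and 71 before it in Cdk1, 23 before it in Top2a, 18 before it in Cdc20 and 8 before it in Gas2l3, each with CCAAT or ATTGG upstream in the window shown. Of the same 19 genes, 13 held CHR letters within 50 bases of the start on either side and 6 held none in the 300 bases. Ccnb1 held CCAAT without CHR letters in this window, and Mcm6 held the E2F letters TTTGGCGC at 47 bases before the start and no CHR letters. Within 50 bases of the start, CHR letters stood in 5.31% of all 32851 promoters in the table and in 3.62% of those of the genes compared. They stood in 61.4% of the promoters of genes at least 5-fold higher in mitotic cells (43 of 70), in 29.8% of those at least 2-fold higher (91 of 305) and in 8.09% of those 1.5-fold to 2-fold higher. Genes within 1.5-fold had them in 2.46% of promoters and genes at least 1.5-fold lower in 2.42%. CCAAT in the whole 300 bases was more widespread, at 37.7% of the promoters of all genes compared, 58.0% of the 2-fold set and 71.4% of the 5-fold set. Promoters were found for 260 of the 324 genes at least 2-fold higher and for 8 of the 9 selecting genes. E2F letters in the 300 bases were in 3.12% of the promoters of all genes compared and were also more frequent among genes higher in mitotic cells, at 8.57% of the 5-fold set, 8.20% of the 2-fold set and 8.67% of those 1.5-fold to 2-fold higher. A match is a description of letters and not of a bound site.

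Across all genes with at least 5 CPM in tumour cells, less the 9 selecting genes, 680 of 8732 (7.79%) were at least 1.5-fold higher in mitotic cells and 349 (4.0%) at least 1.5-fold lower. At 2-fold these were 324 (3.71%) and 84 (0.962%). Higher by 1.5-fold and higher in each of the 6 tags were 523 genes (5.99%), and lower in the same sense 207 (2.37%). At any fold, 1278 genes (14.6%) were higher and 853 (9.77%) lower in all 6 tags. In 672 genes (7.70%) the lowest mitotic sample lay above the highest other sample, and in 243 (2.78%) the reverse held. Because mitotic and other cells were parted by mRNAs of the same libraries, all these differences are descriptions of the cells chosen. The median log2 ratio over all genes compared was 0.05. With the 9 selecting genes included, the genes at least 2-fold higher made up 3.99% of the UMIs of mitotic cells and 1.04% of those of the others. Of 31 gene lists on functions, 12 had a summed CPM at least 1.5-fold higher and 0 at least 1.5-fold lower.

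**Figure D2:**
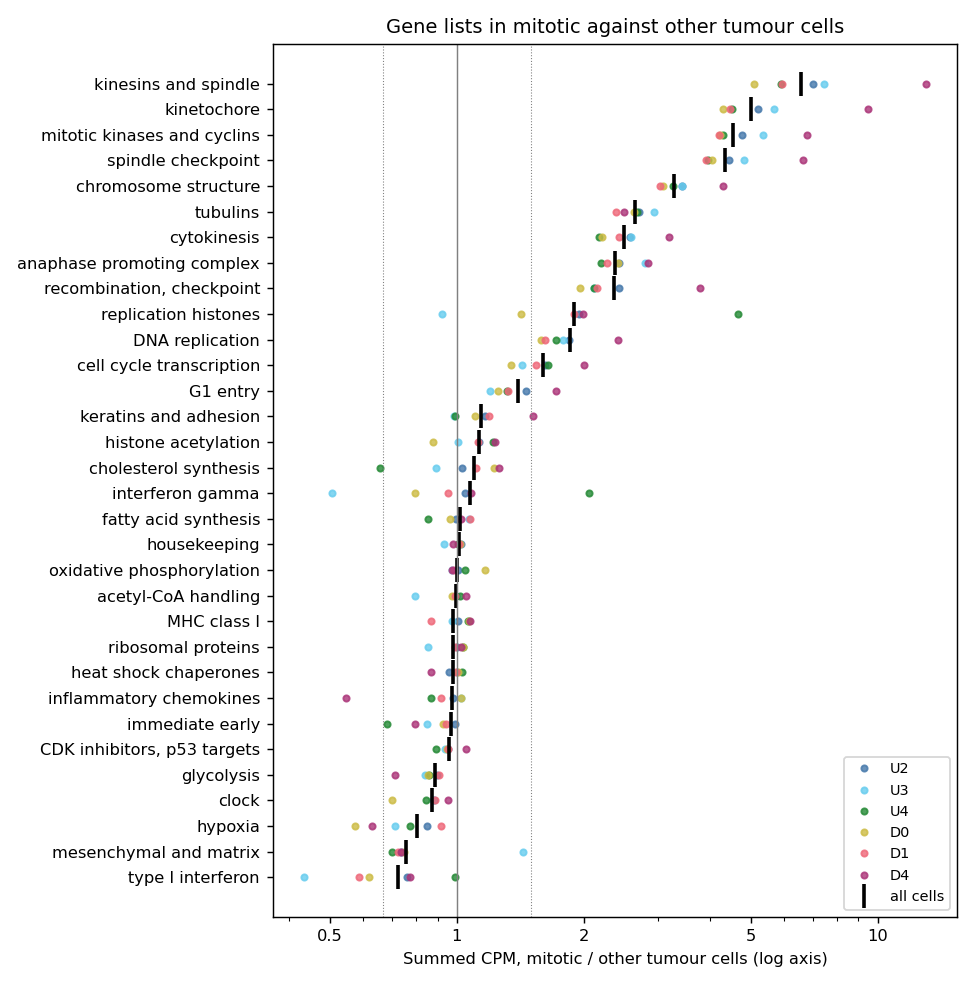
Ratio of summed CPM, mitotic over other tumour cells (x axis, log scale), for each gene list (y axis). Black bars are all cells, dots the 6 tags, and dotted lines mark 1.5-fold. Kinesins and spindle proteins stood highest at 6.58, and over all cells lists of metabolism, ribosome and stress lay near 1.

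Kinases and cyclins of mitotic entry were higher without exception: all 18 listed genes were at least 1.5-fold higher, and their summed CPM was 2545 in members and 560.3 in the others. Plk1, the polo kinase of spindle assembly and cytokinesis, had 112, 125 and 129.5 CPM in the lowest, median and highest mitotic sample and 4.53, 10.6 and 14.4 CPM in the other cells of the same samples. The groups did not overlap, and the ratio over all cells was 10.4 (9.79 to 11.1). Aurka, the centrosomal Aurora kinase, had 107, 139 and 175.5 CPM in mitotic samples and 5.74, 12.4 and 15.3 CPM in the others, a ratio of 10.0 (9.46 to 10.7). Aurkb, the kinase of the chromosomal passenger complex, had a ratio of 7.39, lower than that of Aurka. Nek2, which separates the centrosomes, had 28.6, 38.8 and 65.2 CPM against 1.81, 4.69 and 8.03 CPM, a ratio of 9.46 (8.54 to 10.5), again with no overlap. Cdc25c, the phosphatase that activates Cdk1, had a ratio of 9.33 (8.37 to 10.4) and Cdc25b 4.94. Ccnb2, cyclin B2, had 180.2, 204 and 238 CPM against 24.8, 36.6 and 47.1 CPM, a ratio of 5.28 (5.08 to 5.50). Ccna2, cyclin A2, had a ratio of 7.64 (7.29 to 8.01). Cks2, a small Cdk-binding subunit and the most abundant of those named here, had 857 and 211 CPM.

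Checkpoint and kinetochore genes followed the same pattern. All 9 spindle checkpoint genes were at least 1.5-fold higher, and in 8 of them the lowest mitotic sample lay above the highest other sample. Bub1 and Bub1b, kinases that delay anaphase until the chromosomes are attached, had ratios of 6.99 and 7.34, and Mad2l1, which inhibits Cdc20, 4.20. Bub3, which tethers both kinases to the kinetochore, had the smaller ratio of 2.90, from 223 and 76.9 CPM. All 22 kinetochore and centromere genes were higher by 1.5-fold, with summed levels of 2029 and 406 CPM. Cenpe, the kinesin of the kinetochore, had 280.2, 303 and 470.3 CPM in mitotic samples and 15.4, 32.9 and 42.8 CPM in the others, a ratio of 9.69 (9.33 to 10.1). Cenpa, the histone H3 variant of the centromere, had 443, 462 and 572 CPM against 31.1, 73.1 and 89.4 CPM, a ratio of 6.47 (6.29 to 6.65). Neither gene overlapped between the groups. Ndc80 and Nuf2, which bind microtubules, had ratios of 6.92 and 6.80, and Hjurp, the chaperone that deposits Cenpa, 4.01.

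Spindle motors had the highest ratio of sums of the 31 lists. The 22 measured mitotic kinesins and spindle proteins of 24 listed were all at least 1.5-fold higher, and 21 of them did not overlap between the groups. Aspm, a protein of the spindle poles, had 111, 165 and 202.5 CPM in mitotic samples and 7.24, 11.3 and 16.3 CPM in the others, and its ratio of 13.5 (12.7 to 14.3) was near that of the selecting gene Cenpf, 14.2. Kif11, the motor that pushes the spindle poles apart, had 147, 169 and 196 CPM against 9.06, 18.3 and 21.6 CPM, a ratio of 9.89 (9.40 to 10.4). Kif2c, which depolymerises microtubules, had a ratio of 8.96, Kif20b 8.39, and Kif23, the motor of the central spindle, 7.76. Hmmr, a spindle and hyaluronan binding protein, had 301 and 37.1 CPM. Of 10 tubulin and stathmin genes 9 were higher by 1.5-fold, and the list summed to 5865 and 2214 CPM. Tubb5, a beta tubulin, had 1279, 1741 and 2138 CPM against 452, 615 and 683 CPM, a ratio of 2.86 (2.83 to 2.90), and Tubb4b one of 3.78. Stmn1, which destabilises microtubules, had a ratio of 4.31. Tubulin genes are near copies of each other, so reads can be shared among them.

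**Figure D3:**
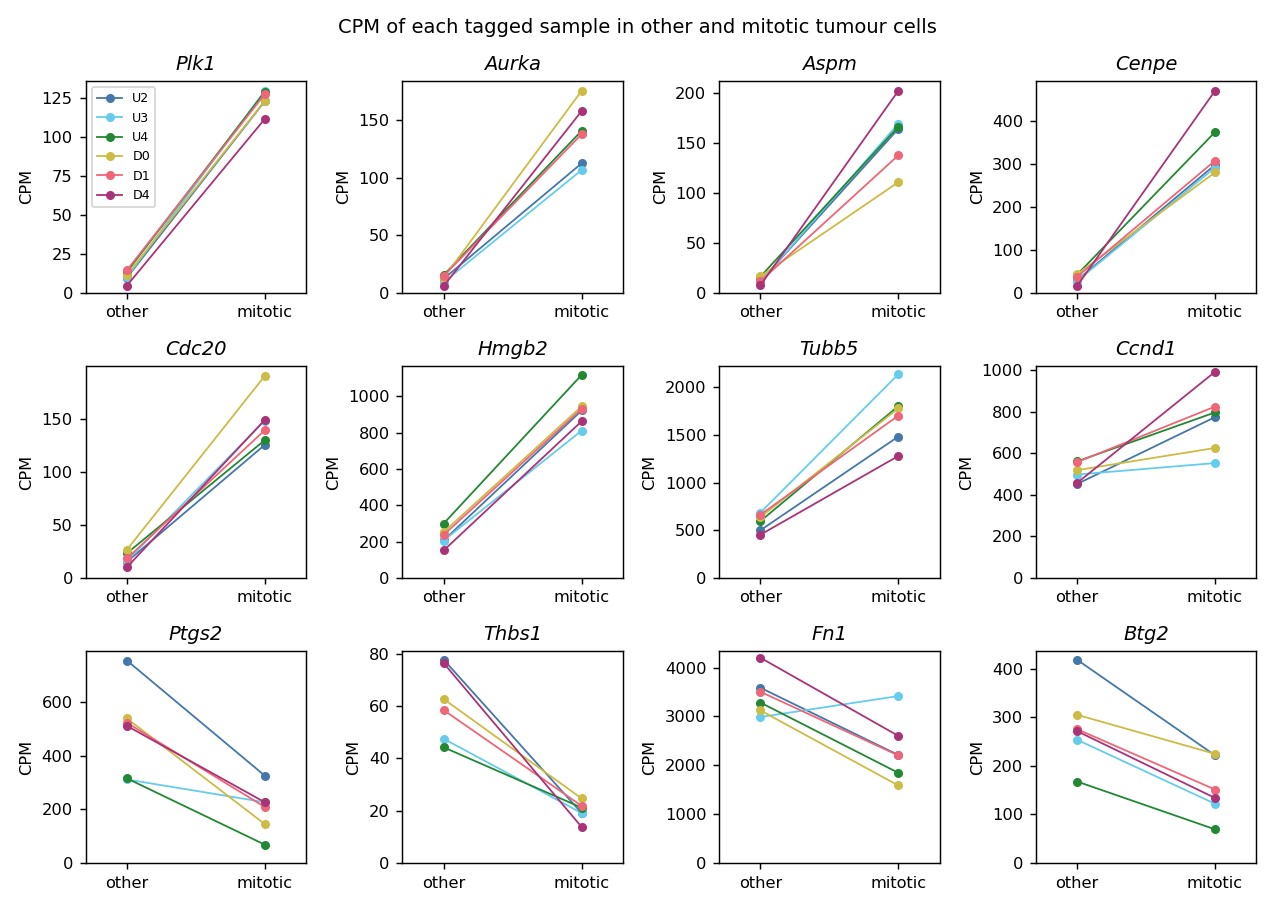
CPM (y axis) in other and mitotic tumour cells (x axis) for 12 genes, a line for each of the 6 tags. Plk1, Aurka, Aspm, Cenpe, Cdc20, Hmgb2 and Tubb5 were higher in mitotic cells of every tag without overlap, while Fn1 was lower in 5 tags and higher in U3.

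Genes of chromatid separation split between regulators and core subunits. Of 19 genes 11 were at least 1.5-fold higher and 0 lower. Cdc20, the activator of the anaphase promoting complex, had 126, 144 and 191 CPM in mitotic samples and 9.96, 17.2 and 26.5 CPM in the others, a ratio of 7.93 (7.51 to 8.39), without overlap. Pttg1, the securin that holds separase in check, had a ratio of 5.31 (5.16 to 5.46), and Espl1, separase itself, 5.91. The second activator, Fzr1, had 3.77, and Sgo1, which protects cohesion at the centromere, 6.52. The core subunits stayed closer to 1: Cdc27 had 47.8 and 29.7 CPM, a ratio of 1.61, and Anapc13 97.3 and 97.7 CPM, a ratio of 0.996 (0.951 to 1.04).

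Chromosome structure and cytokinesis genes were also higher. All 22 condensin, chromosome periphery and chromatin genes were at least 1.5-fold higher, summed at 6665 and 2031 CPM. Smc4 and Smc2, the condensin ATPases, had ratios of 4.24 and 4.74, and Ncapg, a condensin subunit, 6.46. Hmgb2, an abundant DNA-bending protein, had 812, 927 and 1119 CPM against 151, 222 and 299 CPM, a ratio of 4.22 (4.15 to 4.30), with no overlap. H2afz, the histone variant H2A.Z, had 2155 and 815 CPM, a ratio of 2.65 (2.62 to 2.67). Of 11 measured cytokinesis genes of 14 listed, 10 were higher. Cep55, which recruits the abscission machinery, had a ratio of 8.63, Ect2, which activates Rhoa at the cleavage plane, 7.96, and Anln, a scaffold of the contractile ring, 5.97. Sapcd2, a regulator of spindle orientation, had a ratio of 14.4 (12.4 to 16.8) at the low levels of 26.3 and 1.82 CPM.

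The transcription factors of the programme differed among themselves. Of 17 measured genes 7 were higher by 1.5-fold. Foxm1 had 30.5, 36.6 and 42.2 CPM in mitotic samples and 3.62, 7.601 and 9.29 CPM in the others, a ratio of 5.17 (4.72 to 5.66). E2f8, a repressor of E2F targets, had a ratio of 3.20 and Lin54, the MuvB subunit that contacts CHR, 2.80. E2f1, which drives replication genes, had 20.9 CPM in both groups, a ratio of 0.998 (0.902 to 1.103). The groups did not overlap for Foxm1 and overlapped for E2f1.

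Among genes in no list, the 20 with the highest ratios at 20 CPM or more included several with known roles in division. Gas2l3, which links actin and microtubules in cytokinesis, had 64.7, 98.9 and 168 CPM in mitotic samples and 9.61, 12.4 and 16.9 CPM in the others, a ratio of 8.20 (7.69 to 8.74). Pimreg had 7.13, Arl6ip1, a protein that shapes the endoplasmic reticulum, 5.29 from 553 and 105 CPM, and Lockd, a long noncoding RNA next to Cdkn1b, 5.12. Reep4, which clears endoplasmic reticulum from chromosomes, had 4.10 and Rangap1, which activates the Ran GTPase and sits on kinetochores in mitosis, 3.47. Plk4, which starts centriole duplication, had 4.25, and Tmpo, a protein of the nuclear lamina, 3.57.

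The mitotic cells were set apart along the cycle by ranking the same tumour cells on 34 DNA replication genes and taking the top 10%. Of the 581 mitotic cells, 91 were also in that replication set (15.7%, 12.8 to 18.9%), against 9.37% of the other tumour cells. When both rankings were made after thinning to 5000 UMIs the overlap was 20.1%. Replication genes were higher in mitotic cells than in the other tumour cells in 23 of 31 measured members, with a ratio of sums of 1.86, but lower than in the 490 replication cells outside the mitotic set, with a ratio of sums of 0.40 for the 490 mitotic cells outside the replication set. That ratio is fixed in part by how both sets were chosen. Rrm2, the small subunit of ribonucleotide reductase, had 49.9 CPM in members and 19.8 CPM in the others, a ratio of 2.52. Against replication cells its ratio was 0.28. Mcm3, of the replicative helicase, had ratios of 1.66 and 0.28, and Hat1, which acetylates new histone H4 before deposition, 1.80 and 0.455.

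Over all genes less the 9 selecting ones, 366 (4.19%) were at least 1.5-fold higher in mitotic than in replication cells and 450 (5.15%) at least 1.5-fold lower. Of the 450, 30 were among the 34 genes that had chosen the replication cells, and all these differences are descriptions of how both sets were chosen. The genes of division varied widely on this scale. Cdc25c had a ratio of 6.14, Cdkn3, a Cdk phosphatase, 5.61, Gas2l3 5.30, Aspm 4.91, Cenpa 4.80, Pttg1 4.48 and Plk1 4.21. Ndc80 had 1.94 and Aurkb 1.53, both past 1.5-fold, whereas Foxm1 at 1.33, Hmgb2 at 1.15 and Smc2 at 1.08 were within it. E2f1 stood at 0.38 and Esco2, which acetylates cohesin during replication, at 0.60. CHR letters within 50 bases of the start were in 17.7% of the promoters of the genes higher and 1.62% of those of the genes lower in this comparison, while the E2F letters in the 300 bases were in 1.85% and 9.01%. Without the 30 genes of the replication list, left out after the values were seen, the shares among the genes lower were 1.48% for CHR and 7.64% for E2F.

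**Figure D4:**
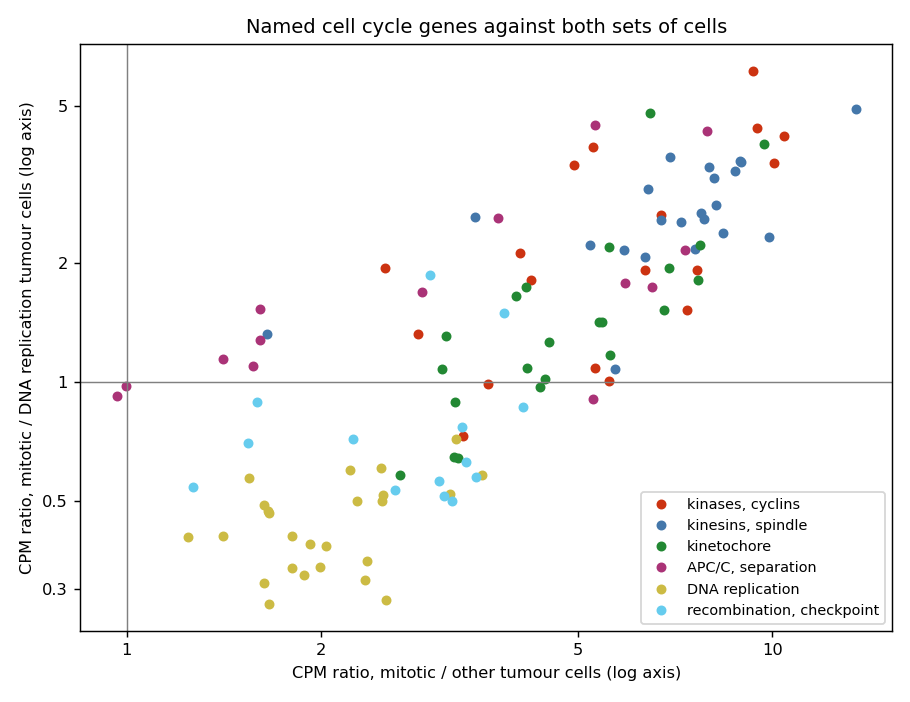
Each point is a cell cycle gene: x axis, CPM ratio of mitotic to other tumour cells, y axis, CPM ratio of mitotic to replication cells, each set without the cells they share (both log scales). On the y axis the kinesins and spindle proteins ran from 1.08 to 4.91, kinetochore genes from 0.58 to 4.80 with 5 of 22 below 1, and the replication genes drawn lay below 1.

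Recombination and checkpoint genes were higher than in the other tumour cells in 13 of 14 measured members of 20 listed, with a ratio of sums of 2.36. Brca1 and Brca2, which act in repair of breaks by homologous recombination, had ratios of 3.35 and 3.04. Against replication cells they had 0.63 and 0.56. Replication-dependent histone genes had a ratio of sums of 1.90, with 7 of 9 measured genes of 18 listed higher, and the lowest mitotic sample was above the highest other sample in 4 of 9. Hist1h1b, a linker histone, had 78.1, 139.9 and 182 CPM against 18.1, 42.8 and 52.8 CPM. In their usual form these mRNAs carry no poly(A) tail, which 3′ kits capture, and histone genes are near copies of each other, so reads can be shared among them.

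Genes that precede or restrain division changed less. Of 11 genes of G1 entry 3 were higher by 1.5-fold and 0 lower. Ccnd1, cyclin D1, had 552.5, 785 and 992 CPM in mitotic samples and 452, 508 and 560.4 CPM in the others, a ratio of 1.59 (1.56 to 1.62), and the groups overlapped by the lowest mitotic sample, U3. Ccnd2, cyclin D2, had 89.3, 100.4 and 121 CPM against 138, 145 and 177 CPM, a ratio of 0.70 (0.67 to 0.73), with no overlap. Of 22 Cdk inhibitors and p53 targets 1 was higher and 1 lower, where 7.79% of all genes compared were higher and 4.0% lower. These counts do not set the list apart from all genes, and its summed CPM ratio was 0.96. The gene higher was Cdkn2d, the p19 inhibitor of Cdk4 and Cdk6, with 91.0, 124.5 and 169.6 CPM against 27.5, 31.2 and 39.9 CPM, a ratio of 3.97 (3.79 to 4.17) without overlap. The gene lower was Btg2, an antiproliferative p53 target and early response gene, with 69.2, 143 and 225 CPM against 168, 274 and 419 CPM, a ratio of 0.56 (0.54 to 0.58) and with overlap.

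Along the ranking, division genes came up late and steeply, which a ranking by the 9 selecting genes fixes in part. The selecting genes themselves summed to 112 CPM in the sixth decile, 946 in the eighth, 2856 in the ninth and 5565 in the tenth. Kinesins and spindle proteins summed to 110.2 CPM in the first decile of tumour cells by score, 132 in the sixth, 772 in the eighth, 1511 in the ninth and 2759 in the tenth, which is the mitotic set. Replication genes summed to 254 CPM in the first decile, 1715 in the eighth, 1879 in the ninth and 1415 in the tenth. Cells of the replication set made up 34.8% of the eighth decile, 42.7% of the ninth and 15.7% of the tenth. Ccnd1 climbed from 289 CPM in the first decile to 609 in the seventh and 768 in the tenth. The summed mesenchymal and matrix list went the other way, from 56156 CPM in the first decile to 39006 in the eighth and 35583 in the tenth. Spp1, osteopontin, made up most of that sum in mitotic and in other tumour cells. Hypoxia genes were lowest in the eighth decile, at 1596 CPM, against 2640 in the first and 1777 in the tenth. The first deciles tie at a score of 0, so their order carries no meaning. Median UMIs also changed along the ranking, though not steadily. They were 19313 in the first decile, 29360 in the third, 22258 in the fourth, 28914 in the eighth and 37221 in the tenth. Their part in the changes of the lists was not tested.

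**Figure D5:**
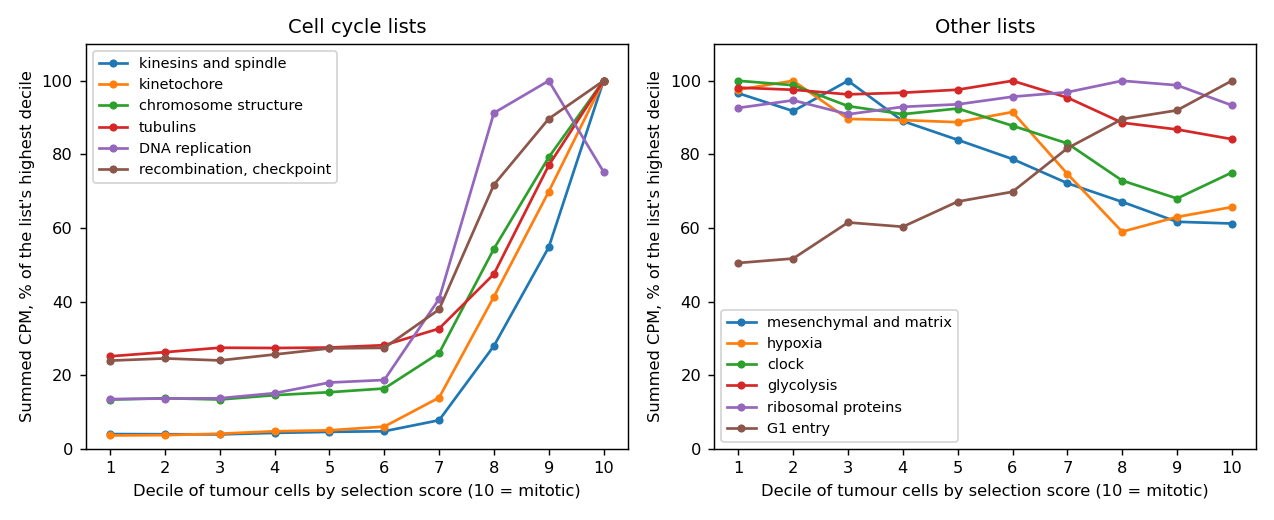
Summed CPM of gene lists as a percent of each list's highest decile (y axis) over deciles of tumour cells by selection score (x axis, 10 is the mitotic set). Left, division lists are highest in decile 10, as the ranking fixes in part, whereas DNA replication is highest in decile 9 at 1879 CPM. Right, the summed mesenchymal and matrix list, weighted to Spp1, and hypoxia genes stand lower in the last deciles. Ribosomal protein genes stay within 10% of their highest decile.

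Fewer genes were lower in mitotic cells than higher. Of 19 measured mesenchymal and matrix genes, 4 were lower by 1.5-fold and 0 higher, where 4.0% of all genes compared were lower. The list summed to 35583 and 47057 CPM. It was not lower than in replication cells: without the cells both sets share, it summed to 36258 CPM in mitotic and 31857 CPM in replication cells, a ratio of 1.14. Thbs1, the matrix glycoprotein thrombospondin, had 13.7, 20.1 and 24.6 CPM in mitotic samples and 44.2, 60.5 and 77.7 CPM in the others, a ratio of 0.27 (0.245 to 0.30), without overlap. Fn1, fibronectin, had 1586, 2206 and 3418 CPM against 2988, 3396 and 4204 CPM, a ratio of 0.65 (0.65 to 0.66). Its ratio against replication cells was 1.28. In U3 it was higher in mitotic cells, at 3418 and 2988 CPM, and the groups overlapped through that sample alone. Spp1, osteopontin, had 22653 and 33194 CPM, a ratio of 0.68, just inside the 1.5-fold limit. It made up most of the list's summed CPM in both groups, so the sum is weighted to this gene. In UMIs per cell the differences were smaller: Fn1 had 86.4 UMIs per mitotic cell and 96.9 per other cell, and Spp1 836 and 894.

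Outside the lists, the 10 lowest ratios at 20 CPM or more included Hp, the haemoglobin scavenger haptoglobin, at 0.18 (0.15 to 0.21). The Hp ratio was 0.326 in cells with exactly 1 tag, 0.298 as the median of the tags with at least 20 mitotic cells and 0.119 with the top 5% as mitotic. Also among the 10 were Itgb8, an integrin that activates TGF-beta, at 0.28, and Ogn, a small matrix proteoglycan, at 0.27. Hmox1, the haem-degrading enzyme of the oxidative stress response, had 22.3, 42.5 and 59.3 CPM in mitotic samples and 160.0, 182 and 209 CPM in the others, a ratio of 0.28 (0.26 to 0.29), without overlap. Ctgf, a matrix protein and target of Yap, had 36.0, 68.8 and 211 CPM against 243, 305 and 397 CPM, a ratio of 0.33, also without overlap. Mgp, an inhibitor of calcification, had 366, 1046 and 3345 CPM against 1659, 2122 and 3064 CPM, a ratio of 0.36, and U3 was higher in mitotic cells for this gene too. Against replication cells the ratios were 0.67 for Hp, 1.35 for Hmox1, 0.51 for Ctgf and 0.92 for Mgp.

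Of 16 chemokine and cytokine genes 6 were lower and 2 higher, where 4.0% of all genes compared were lower and 7.79% higher. Ptgs2, the inducible cyclooxygenase, had 68.0, 218 and 326 CPM in mitotic samples and 312, 518 and 757 CPM in the others, a ratio of 0.43 (0.41 to 0.44), with overlap between samples but a lower level in all 6 tags. Ccl7, a monocyte chemokine, had a ratio of 0.64, while Cxcl1, which attracts neutrophils, had 2727 and 2278 CPM. Of 11 type I interferon genes 4 were lower and 0 higher. Rsad2, the antiviral protein viperin, had a ratio of 0.41 (0.37 to 0.46), or 0.274 among cells with at least 10 keratin UMIs, and Ifit1, which binds viral RNA, 0.49, whereas Isg15, the ubiquitin-like modifier, had 0.87. The summed level of the list ran from 514 to 1281 CPM in mitotic samples and from 995 to 2076 CPM in the others. Of 12 hypoxia genes 3 were lower: Vegfa, the angiogenic factor, and Ero1l, an oxidase of the endoplasmic reticulum, had ratios of 0.66 and 0.65. Against replication cells the hypoxia list was higher, at 1.45.

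Over all cells, lists of general metabolism stayed within 1.5-fold. Ratios of sums were 1.001 for oxidative phosphorylation, 0.98 for ribosomal proteins, 1.02 for fatty acid synthesis, 1.096 for cholesterol synthesis and 1.01 for housekeeping genes. The cholesterol ratio ran from 0.656 in U4, past 1.5-fold lower, to 1.26 in D4, and was above 1 in 4 tags. In glycolysis 0 of 14 genes passed 1.5-fold, yet 11 were lower in all 6 tags, where 9.77% of all genes compared were. The glycolysis sum was 8855 against 9958 CPM, and its ratio of mitotic to replication cells was 1.04. Pgk1 and Ldha, of the lower steps of glycolysis, had ratios of 0.90 (0.89 to 0.92) and 0.93 (0.91 to 0.94). Immediate early genes had 0.97 over all cells and were below 1 in all 6 tags, from 0.682 in U4 to 0.989 in U2. Of the 19 measured, 7 were lower in all 6 tags. MHC class I genes, which are near copies of each other, had 0.98. Yet 3 of these 12 were at least 1.5-fold higher and 0 lower, where 7.79% of all genes compared were higher. Heat shock chaperones had 0.98. Within the last, Hspb1, a small chaperone, was lower, with 362, 745 and 1412 CPM against 1155, 1299 and 1737 CPM, a ratio of 0.55 (0.54 to 0.55), and was higher in mitotic cells of U3.

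Genes named by the study were low in these cells. Acss2, the enzyme targeted by the inhibitor, had 21 UMIs in all mitotic cells, which is 0.98 CPM (0.61 to 1.497), against 2.06 CPM in the other tumour cells, a ratio of 0.48 (0.29 to 0.74). It had 4 UMIs in mitotic cells of U2, 6 in D1 and 0 in the other 4 tags, so no level can be set for single samples. Acly, which makes acetyl-CoA from citrate, had 41.2 and 44.3 CPM, and the list of acetyl-CoA handling had 0 of 9 genes past 1.5-fold and a ratio of sums of 0.99. Histone acetylation genes had a ratio of 1.13, with 1 of 20 higher, where 7.79% of all genes compared were higher. Arntl, which encodes Bmal1, had 6.29 CPM (5.28 to 7.45) against 5.44 CPM, a ratio of 1.16 (0.96 to 1.39), higher in 4 tags and lower in 2. Of 13 clock genes 2 were lower and 0 higher, where 4.0% of all genes compared were lower. Bhlhe41, a clock repressor, was at 0.57 (0.53 to 0.61), and Clock, the partner of Bmal1, at 1.05.

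The mitotic cells were also split by their own score, which fixes the direction for the selecting genes and for genes that go with them. The 291 with the highest scores had 1.32 times the kinesin and spindle level of the 290 with the lowest (1.298 to 1.34), at median depths of 37693 and 36081 UMIs. Cenpf, a selecting gene, had 1008 and 611 CPM, Aspm 178 and 116 CPM, Cenpe 362 and 251 CPM, and Plk1 136 and 102.5 CPM. Replication genes had a ratio of 0.91 (0.89 to 0.94) between these sets. Hist1h4i, a histone H4 gene, had 103 and 35.0 CPM. Its ratio of mitotic to other tumour cells, 2.52, was 1.32 without U4. Across single members, the 10th percentile, median and 90th percentile were 25.7, 108 and 213 CPM for Plk1, 51.4, 179 and 374 CPM for Ccnb2 and 105, 283 and 527 CPM for Cenpe. The UMIs behind these values were few: a mitotic cell held 4.42 UMIs of Plk1, 7.47 of Ccnb2 and 11.4 of Cenpe on average.

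Members inside and outside the replication set also differed. The 91 mitotic cells in it had 2.12 times the replication gene level of the 490 outside it, as their choice fixes. Ccnb2 had 150 and 212 CPM, a ratio of 0.71 (0.64 to 0.78), Cenpa 345 and 477 CPM, a ratio of 0.72, and Cdc20 101 and 137 CPM, a ratio of 0.73, all lower in the 91 cells. Hmgb2 was higher there, with 1160 and 897 CPM, as was Aurkb, with 111 and 79.0 CPM. Median depths were 36556 and 37319 UMIs. More than 1 tag was seen in 5.49% and 7.96% of them.

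Markers of other cells moved little or were lower in members. T cell markers, of which 0 of 10 reached 5 CPM, summed to 4.01 and 5.41 CPM, B cell markers to 1.40 and 2.61 CPM, endothelial markers to 3.68 and 6.15 CPM and neutrophil markers to 4.20 and 11.1 CPM. Macrophage markers summed to 58.0 and 76.9 CPM, with Lyz2, the macrophage lysozyme, at 1.96 and 8.75 CPM. Most of the sum in mitotic cells was Cd14. It had 49.8 of 56.4 CPM in the 291 members with the highest scores and 47.5 of 59.6 CPM in the other 290. Of 3 measured macrophage markers 2 were lower by 1.5-fold and 1 was neither higher nor lower. In mitotic samples the sums ran from 1.72 to 13.3 CPM for T cells and from 24.6 to 64.2 CPM for macrophages, against 4.02 to 5.42 and 44.3 to 104 CPM in the other cells. Defining markers at 0 UMIs in mitotic cells were Iglc2, Itgax, Xcr1, Retnlg, Cldn5 and Emcn. Dendritic cell markers summed to 17.4 and 24.4 CPM and haemoglobin and other erythroid markers to 11.3 and 38.6 CPM, of which 180 UMIs of Hbb-bs in mitotic cells included 149 from U4. The erythroid ratio of 0.29 was 0.0682 without U4 and 0.464 without D1. Fibroblast markers summed to 2383 and 3594 CPM, carried by Dcn, a matrix proteoglycan, at 1882 and 2740 CPM. They were lower beside the matrix genes above in 5 tags and higher in U3, and their part in the matrix result was not tested.

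The ratios depended on what counts as another tumour cell. When the others were limited to the 4063 cells under 10% of the score limit, a choice made after seeing the data, the ratio of sums was 20.9 in place of 6.58 for kinesins and spindle proteins, 16.9 in place of 4.996 for kinetochore genes and 3.94 in place of 1.86 for replication genes. Plk1 then had a ratio of 145. Taking the top 20% of tumour cells as mitotic gave 2.91 for replication genes and 7.54 for kinetochore genes, with 31.2 for Aspm and 26.03 for Kif11. The summed mesenchymal and matrix list, weighted to Spp1, stayed at 0.70 in the first case and 0.73 in the second.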

How the data were processed

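The deposited matrix holds counts of UMIs for 31053 genes and 6 antibody tags in 9747 barcodes. Per the submitters' processing notes the authors used Cell Ranger with mm10, and per the file headers the software version was 3.1.0. The annotation they counted against is not stated. Counts were summed over cells and given as CPM (minimum 5 CPM over tumour cells), with exact Poisson and conditional 95% intervals; a gene was called past 1.5-fold. A level of 0 counts allows up to 3. Such intervals cover counting error alone. Tags were assigned with HTODemux (Seurat 5.3.0, R 4.3.3, quantile 0.99, seed 42): of 8784 cells 5590 had 1 tag, 2329 none and 865 more than 1. These last are doublets and were kept; no other doublet caller was run. No p-values were computed, because cells are not replicates. Ratios, fold calls and intervals were tested on simulated count totals of each group, drawn without variation between cells or samples. Promoters came from RefSeq (GRCm38.p6). Scripts ran in Python 3.11.15 with numpy 2.4.6, scipy 1.17.1 and pandas 2.3.3. The members, the 41 gene lists and the comparisons were chosen with earlier results of these data known. Named genes were the 9 selecting genes, the 6 most abundant members of each list, members past 1.5-fold, the 20 highest and 10 lowest ratios outside the lists among genes with at least 20 CPM, Acss2 and Arntl. Alternatives varied the ranking, filters, scaling, tags and fold.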

Additional observations from a re-analysis of the deposited data

Results flagged for a closer look

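Of 34 values checked over the 6 tagged samples, 13 had a sample whose gap to its nearest neighbour was over 0.625 of the whole range. This limit flags about 1 in 20 groups of equally precise values. The tags held 12 to 185 mitotic cells, so their values were not equally precise and the 13 cannot be set against that rate. All flagged samples were D4, U3 or U4. The values share their samples and are not independent. D4, with 17 mitotic cells, stood apart in 8 lists. Its ratio of mitotic to other tumour cells was 6.64 for the spindle checkpoint, 9.49 for kinetochore genes, 13.05 for kinesins and spindle proteins, 4.30 for chromosome structure, 2.42 for DNA replication and 3.79 for recombination and checkpoint genes, each the highest of the 6. It was the lowest for glycolysis, at 0.714, and for inflammatory chemokines, at 0.545. For kinesins its 143 other cells were at 271 CPM, the lowest of the other cells in any tag, and its mitotic cells at 3532 CPM, the highest.

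U4, with 23 mitotic cells, had a ratio of 4.66 for replication-dependent histones, from 1895 and 406 CPM, and of 2.06 for interferon gamma genes, from 1189 and 576 CPM. U3, with 14 mitotic cells, had 0.796 for acetyl-CoA handling and 0.852 for ribosomal proteins, each the lowest. For the summed mesenchymal and matrix list, weighted to Spp1, U3 had 1.44, from 55496 and 38644 CPM. The other tags lay between 0.70 and 0.75.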

How the results depend on the processing

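The counts of 680 genes higher and 349 lower by 1.5-fold moved by over 1.5 times under these settings: a minimum of 20 CPM gave 316 and 151, a fold of 2 gave 324 and 84, a minimum of 1 CPM gave 701 lower, and limiting the others to cells under 10% of the score limit, chosen after seeing the data, gave 531 lower. Scaling without the genes 2-fold higher gave 760 and 282. Leaving out each tag in turn gave 670 to 687 higher and 337 to 352 lower, and 12 lists higher and 0 lower each time. Under the settings run for the ranking, tags and keratin limit, the count of lists higher by 1.5-fold stayed at 12; with the others limited as above it was 13. The D1 share was 12.3% when untagged cells went to their strongest tag, and the overlap with the replication set was 20.1% after thinning. Ranking after thinning chose 571 cells, of which 502 were among the 581 members. Mitotic and other cells of the same tag are set side by side as values. Vehicle and inhibitor could not be compared, because their samples are not mapped to tags. Mitotic and other cells are paired within each tag, but samples of unknown arm were not treated as replicates in a test. Depth limits genes such as Acss2, with 21 UMIs in mitotic cells, and tags with few mitotic cells.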
